A study of Mus musculus with 9 samples.

Results

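The angiopoietins Angpt1 and Angpt2, the Tie receptors Tek and Tie1, the platelet-derived growth factor (PDGF) ligands Pdgfa, Pdgfb, Pdgfc and Pdgfd, and the PDGF receptors Pdgfra and Pdgfrb were read on 9 Affymetrix arrays of whole mouse lung. Members were the probe sets whose only annotated gene symbol is that of 1 of these 10 genes. They were 10 of 18193 named genes and 20 of 45037 probe sets once controls were set aside, and 18 of the 20 were bright enough to be tested. The 2 others, Angpt2 1459636_at and Pdgfd 1446691_at, belonged to the dimmest 40% of probe sets, at log2 levels of 4.16 to 5.78 and of 4.79 to 5.95 over the 9 arrays. Mice of the strains BL6 (C57/BL6), FVB/N and SV129 spent 4 weeks in hypobaric hypoxia at 50 kPa (2 arrays per strain, 6 in all) or 4 weeks at the altitude of Denver, 85 kPa, called normoxic in the titles (1 array per strain, 3 in all). RNA came from the homogenised right lung, so every value is an average over all cell types of the organ. No genetic alteration is named in the labels. Whether each array is its own animal is not stated, and p-values cover no more than the array-to-array spread seen here, part of which may be technical.

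Tek encodes Tie2, the endothelial receptor tyrosine kinase for the angiopoietins. Angpt1, made largely by perivascular and mesenchymal cells, activates Tie2 and stabilises vessels, whereas Angpt2, made by endothelium, can oppose or partly activate it, and Tie1 is an endothelial co-receptor without a high-affinity ligand of its own. PDGF ligands are dimers that signal through receptor tyrosine kinases of mesenchymal cells: Pdgfa acts on Pdgfra of lung fibroblasts and alveolar myofibroblasts, and Pdgfb from endothelium and platelets recruits pericytes and smooth muscle through Pdgfrb. Pdgfc and Pdgfd are secreted in a latent form and need proteolysis before they bind, Pdgfc mainly to Pdgfra and Pdgfd to Pdgfrb. Both systems are known for their part in pulmonary vessel remodelling.

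Promoter sequence from RefSeq (GRCm38.p6) was matched for 6 of the 10 genes, as the 250 bases before each annotated start. It is the reference genome's sequence, not that of the strains on the arrays. The windows of 3 genes are shown: Pdgfd, with the clearest strain difference on 1 of its probe sets, and the receptors Tek and Tie1. They lie at chr9:6168236-6168485 on the plus strand for Pdgfd, at chr4:94739039-94739288 on the plus strand for Tek and at chr4:118489850-118490099 on the minus strand for Tie1. Capitals mark a match to the letters of the TATA box (TATAAA on either strand) in Pdgfd. In Tek and Tie1 they mark the core of the binding motif of ETS factors (GGAA, read TTCC on the other strand). ETS factors are known drivers of endothelial genes.
Pdgfd: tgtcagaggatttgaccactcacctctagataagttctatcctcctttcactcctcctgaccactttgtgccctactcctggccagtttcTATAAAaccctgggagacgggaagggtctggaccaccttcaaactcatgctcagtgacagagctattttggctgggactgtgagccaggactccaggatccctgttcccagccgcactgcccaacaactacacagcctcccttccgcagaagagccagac
Tek: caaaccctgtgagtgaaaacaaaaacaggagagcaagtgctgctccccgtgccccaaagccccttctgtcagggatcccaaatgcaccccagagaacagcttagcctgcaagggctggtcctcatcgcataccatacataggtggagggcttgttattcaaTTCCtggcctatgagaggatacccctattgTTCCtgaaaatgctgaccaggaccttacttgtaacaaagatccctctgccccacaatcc
Tie1: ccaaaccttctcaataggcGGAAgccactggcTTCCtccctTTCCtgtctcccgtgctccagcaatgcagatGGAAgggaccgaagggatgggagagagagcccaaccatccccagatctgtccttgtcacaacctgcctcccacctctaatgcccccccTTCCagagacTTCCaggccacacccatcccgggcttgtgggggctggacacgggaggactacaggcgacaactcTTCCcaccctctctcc
The TATAAA match of Pdgfd lay 160 bases before the annotated start, and 12.4% of 32851 promoters of the same length hold such a match at any position. Whether it works as a TATA box was not tested. Tek had 2 matches to the ETS core and Tie1 had 7, against a median of 3 per promoter and at least 1 match in 93.4% of promoters. The core of the hypoxia response element (ACGTG or GCGTG, either strand) was present in 38.6% of all promoters. Of the 7 windows of the 6 genes it was found in 1 of those of Pdgfa, 231 bases before the start, and in no window of Pdgfc, Pdgfd, Tek, Tie1 or Pdgfra.

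Values are log2(signal + 16) after quantile normalization, a scale that understates changes of dim probe sets, and a brighter probe set is no measure of more transcript. Lung identity was checked with Sftpc, which encodes surfactant protein C, at 14.61 to 14.95, and with the club cell gene Scgb1a1, at 14.89 to 15.06, on all 9 arrays. Of the arrays, 2 also carried kidney transcripts. Over 18 kidney markers the mean log2 level was 12.41 on the normoxic FVB/N array 1 and 11.51 on the hypoxic BL6 array 2, against 5.76 to 6.32 on the other 7 arrays. Umod, the gene for uromodulin, read 14.24 on the normoxic FVB/N array and 13.62 on that BL6 array, and 4.21 to 6.92 elsewhere. The normoxic FVB/N array also carried skeletal muscle RNA, with Acta1 at 13.13 there and at 5.48 to 7.59 on the other arrays. The brown fat marker Ucp1 lay between 4.21 and 4.93 on all 9. The normoxic FVB/N array is the only one of its strain at that pressure, and the BL6 array is 1 of 2 hypoxic arrays of its strain, so every hypoxia value in FVB/N, in BL6 and across strains rests in part on these arrays.

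Across the 3 strains, hypoxia changed none of the 18 member probe sets past an adjusted p of 0.05 (limma, Benjamini-Hochberg over 27022 probe sets), where 3.76% of all probe sets passed. An unadjusted p under 0.05 was reached by 7 of the 18, against 22.2% of all probe sets. Of these 18 probe sets of 10 genes, 13 were above 0 and 5 below (median of all probe sets 0.036). Within strains, 9 were above 0 in BL6, 13 in SV129 and 16 in FVB/N, whose normoxic array carries kidney and muscle transcripts. The log2 changes of the 18 across strains lay between -0.84 for Pdgfc 1419123_a_at and 1.07 for Pdgfra 1421916_at. All 6 hypoxic arrays stood above the normoxic array of their strain for 5 of the 18 (14.5% of all probe sets): Angpt1 1421441_at, Tek, Pdgfb 1450413_at, Pdgfra 1421916_at and Pdgfrb 1417148_at. For 3 of the 18 the 6 hypoxic and 3 normoxic arrays did not overlap at all (10.7% of all probe sets). Over all probe sets 525 passed upward and 491 downward, a split that became 1027 and 413 with each array centred on its median, a scaling that put the median of all probe sets at 0.11 against 0.036 after quantile normalization. Without the 2 kidney arrays 37 passed upward and 191 downward. In whole lung, fewer cells of a type and less RNA per cell cannot be told apart.

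Of the ligands of Tie2, Angpt1 was higher after hypoxia on its dimmer probe set without passing the test. Angpt1 1421441_at read 9.53 and 9.78 on the hypoxic BL6 arrays 2 and 5, 10.08 and 10.37 on the hypoxic FVB/N arrays and 9.32 and 10.37 on the hypoxic SV129 arrays, against 9.12, 8.74 and 9.29 on the normoxic BL6, FVB/N and SV129 arrays. The groups did not overlap, but the lower SV129 value lay only just above its normoxic array. The mean was 9.91 ± 0.438 (SD, n = 6) in hypoxic and 9.05 ± 0.286 (n = 3) in normoxic lung, a log2 difference of 0.86 ± 0.266 (SE, adjusted p = 0.106). Without the hypoxic SV129 array 2, the difference was 1.03 and the adjusted p 0.0351. It was 0.54 (adjusted p = 0.303) without the normoxic FVB/N array and 0.60 (adjusted p = 0.386) without both kidney arrays. The brighter probe set Angpt1 1439066_at ran from 10.82 to 11.79 on the hypoxic arrays, against 10.98 to 11.23 on the normoxic ones, and differed by 0.28 ± 0.180 (adjusted p = 0.405), or by 0.077 without the normoxic FVB/N array. Angpt2 1448831_at ran from 8.73 to 9.30 in hypoxic lung and from 8.19 to 8.95 in normoxic lung, with a difference of 0.28 ± 0.189 (adjusted p = 0.416) that was 0.012 without the 2 kidney arrays. For both of these the groups overlapped, and 4 of the 6 hypoxic arrays lay above their strain's normoxic array.

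The receptors Tek and Tie1 stood higher in hypoxic lung in most arrays, most of all in FVB/N. Tek, read by a single probe set (1418788_at), measured 12.61 and 12.71 in hypoxic BL6, 13.39 and 12.98 in hypoxic FVB/N and 12.77 and 12.89 in hypoxic SV129 lung, against 12.47, 12.02 and 12.71 in normoxic BL6, FVB/N and SV129 lung. Every hypoxic array lay above its own strain's normoxic array, although the groups overlapped over strains. The difference across strains was 0.49 ± 0.195 (adjusted p = 0.181, or 0.0485 as the mean of the within-strain effects), and it was 0.17 without the 2 kidney arrays. Tie1 1416238_at measured 11.22, 11.44, 11.84, 11.25, 11.74 and 11.21 in the hypoxic arrays in the same order, against 10.73, 10.29 and 11.22 in the normoxic ones. The normoxic SV129 value lay inside the hypoxic range, and 5 of the 6 hypoxic arrays exceeded their own normoxic array. The difference was 0.70 ± 0.219 (adjusted p = 0.107) across strains and 0.45 without the kidney arrays.

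**Figure D1:**
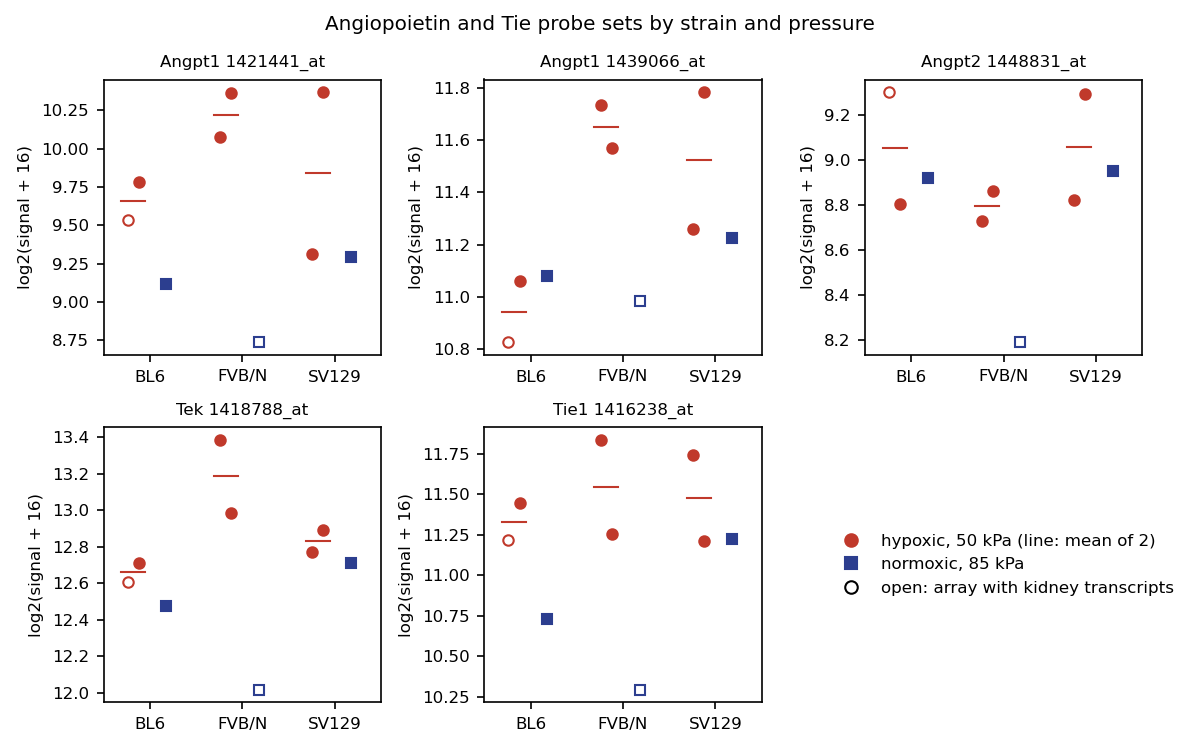
Levels of the 5 tested angiopoietin and Tie probe sets, as log2(signal + 16) after quantile normalization (vertical axis), by strain, with hypoxic arrays as circles left of the normoxic array as a square, the short line at the mean of 2 hypoxic arrays, and open symbols for the 2 arrays with kidney transcripts. The normoxic FVB/N array is the lowest of the 9 for Angpt1 1421441_at, Angpt2, Tek and Tie1, at 8.74, 8.19, 12.02 and 10.29.

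Among the PDGF ligands, Pdgfb was nearest to a rise and Pdgfc to a fall, and no ligand passed the test across strains. Pdgfb 1450413_at read 9.72 and 9.48 in hypoxic BL6, 9.35 and 9.22 in hypoxic FVB/N and 9.94 and 9.23 in hypoxic SV129 lung, against 9.25, 8.75 and 9.03 in normoxic BL6, FVB/N and SV129 lung. Each hypoxic array exceeded its own strain's normoxic array, by a mean of 0.48 ± 0.180 (adjusted p = 0.159) and by 0.42 without the kidney arrays. The brighter Pdgfb 1450414_at differed by 0.10 ± 0.120 (adjusted p = 0.680), with 4 of 6 hypoxic arrays higher. The 2 probe sets of Pdgfa differed by -0.034 ± 0.227 for 1418711_at, a value that turned to 0.075 with median centring, and by -0.20 ± 0.184 for 1449187_at, which was -0.41 without the kidney arrays. Of the 6 hypoxic arrays, 2 stood above their own normoxic array for each of them.

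Pdgfc, the ligand of Pdgfra that needs cleavage, followed the kidney arrays. Pdgfc 1419123_a_at measured 7.84 and 7.11 in hypoxic BL6, 6.62 and 6.36 in hypoxic FVB/N and 6.89 and 7.34 in hypoxic SV129 lung, against 7.39, 8.71 and 7.51 in normoxic BL6, FVB/N and SV129 lung. Pdgfc 1449351_s_at measured 8.29, 7.27, 6.69, 6.81, 7.46 and 7.38 in the hypoxic arrays in the same order, against 7.05, 9.003 and 7.08 in the normoxic ones. On both probe sets the 2 arrays with kidney transcripts were the highest of the 9, and Pdgfc was the only member gene with tested probe sets above the other 7 arrays on both. The same 2 arrays were the lowest of the 9 on Angpt1 1439066_at and on Pdgfra 1421917_at and 1438946_at. On Pdgfra 1421917_at they read 12.66 (BL6) and 11.91 (FVB/N), against 12.76 to 13.25 on the other 7. The differences across strains were -0.84 ± 0.393 (adjusted p = 0.245) and -0.39 ± 0.494 (adjusted p = 0.679), and without the kidney arrays they were -0.35 and 0.29. The part of kidney RNA in these values was not tested beyond that comparison. Pdgfd, the latent ligand of Pdgfrb, differed by 0.23 ± 0.226 on 1426319_at and by 0.0058 ± 0.236 on 1456532_at between hypoxic and normoxic lung. On 1456532_at this was far less than the difference of SV129 from either other strain, described further on. Without the normoxic FVB/N array 1426319_at was at 0.014 and 1456532_at at -0.39.

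**Figure D2:**
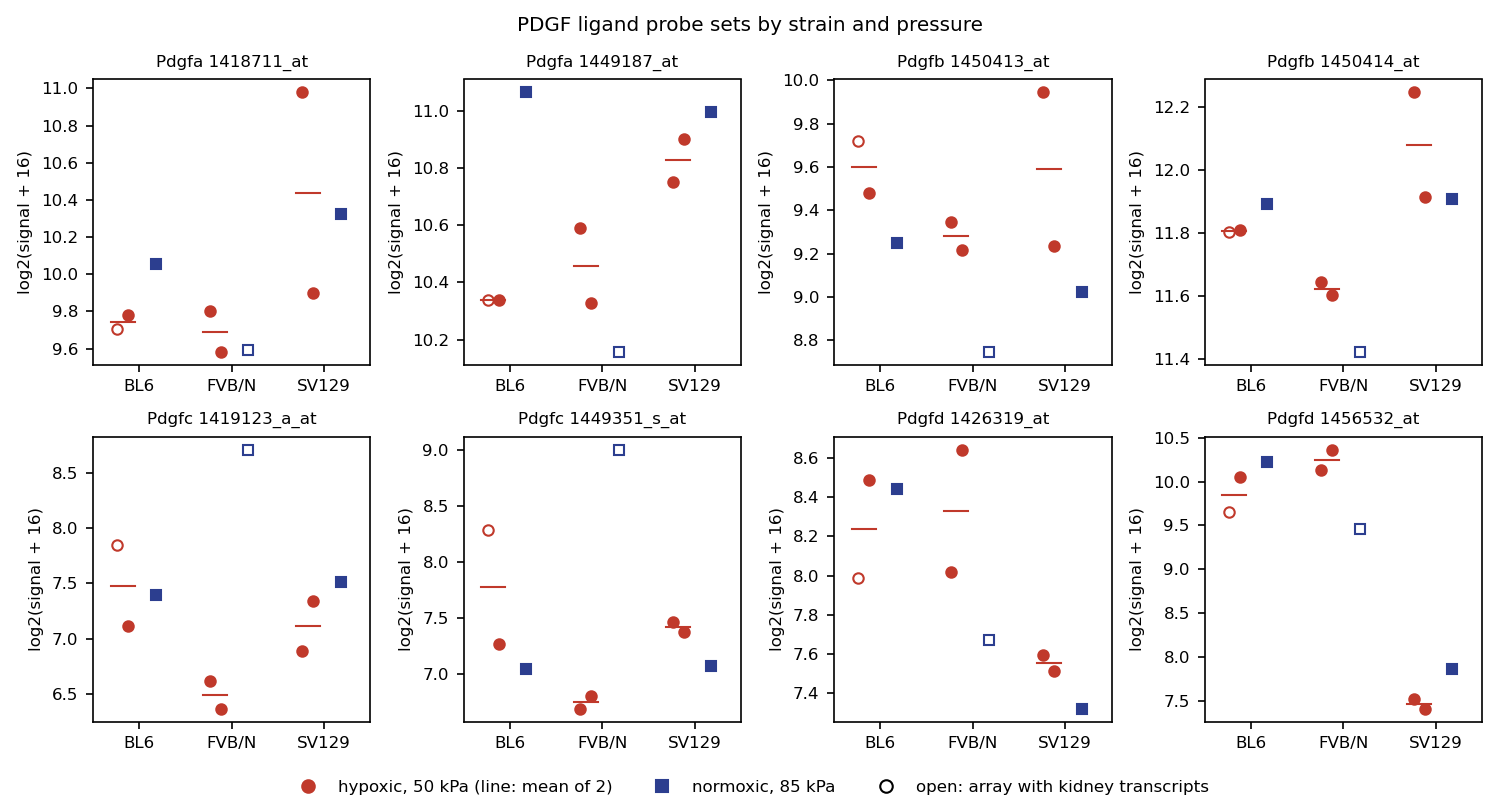
Levels of the 8 tested PDGF ligand probe sets, as log2(signal + 16) after quantile normalization (vertical axis), by strain, with symbols as in the plot of the angiopoietin and Tie probe sets. On both Pdgfc panels the open symbols are the highest points, and on Pdgfd 1456532_at the 3 SV129 arrays lie between 7.41 and 7.87, all below the other 6.

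The receptor Pdgfra, the mark of lung fibroblasts, showed its largest hypoxic difference on 1 of its 3 probe sets. Pdgfra 1421916_at measured 11.07 and 11.11 in hypoxic BL6, 10.68 and 11.42 in hypoxic FVB/N and 10.21 and 10.49 in hypoxic SV129 lung, against 10.21, 9.08 and 9.99 in normoxic BL6, FVB/N and SV129 lung. The groups did not overlap, but by a margin that vanishes at 2 decimals between the lowest hypoxic and the highest normoxic array. The mean was 10.83 ± 0.447 (SD, n = 6) in hypoxic and 9.76 ± 0.602 (n = 3) in normoxic lung, a 2.10-fold difference (log2 1.07 ± 0.281, adjusted p = 0.0696). Without the kidney arrays the log2 difference was 0.59 (adjusted p = 0.303), while 4 other settings brought the adjusted p under 0.05, down to 0.0243. The other probe sets differed less, by 0.43 ± 0.197 on 1421917_at (adjusted p = 0.237), or 0.13 without the kidney arrays, and by 0.014 ± 0.256 on 1438946_at (adjusted p = 0.980). That of 1438946_at had no stable direction, and was -0.23 without the kidney arrays.

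The 2 probe sets of Pdgfrb, the receptor of pericytes and vascular smooth muscle, moved in opposite directions. Pdgfrb 1417148_at measured 10.73 and 10.58 in hypoxic BL6, 10.62 and 10.49 in hypoxic FVB/N and 11.14 and 10.72 in hypoxic SV129 lung, against 10.12, 9.60 and 10.47 in normoxic BL6, FVB/N and SV129 lung. No hypoxic array fell as low as any normoxic one. The mean was 10.71 ± 0.226 (SD, n = 6) in hypoxic and 10.06 ± 0.439 (n = 3) in normoxic lung, 1.57-fold higher (log2 0.65 ± 0.154), and its adjusted p of 0.0542 was the smallest of the 18 members and just over the threshold. Pdgfrb 1436970_a_at measured 11.59 and 11.48 in hypoxic BL6, 11.49 and 11.37 in hypoxic FVB/N and 11.88 and 11.97 in hypoxic SV129 lung, against 12.35, 11.38 and 12.64 in normoxic BL6, FVB/N and SV129 lung. It stood lower in hypoxic BL6 and SV129 lung and level in FVB/N lung. The mean was 11.63 ± 0.242 (n = 6) in hypoxic and 12.12 ± 0.659 (n = 3) in normoxic lung (log2 -0.49 ± 0.163, adjusted p = 0.123). Without the normoxic FVB/N array it was -0.76 (adjusted p = 0.0141), and without both kidney arrays -0.77 (adjusted p = 0.049997), while 1417148_at was then 0.46 (adjusted p = 0.277). The adjusted p was under 0.05 in 6 of 22 alternative settings for 1417148_at and in 5 of 22 for 1436970_a_at. In all 22 settings 1417148_at stayed above 0 and 1436970_a_at below it.

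The gap between the 2 Pdgfrb probe sets on the same array, 1417148_at minus 1436970_a_at, was -0.86 and -0.90 in hypoxic BL6, -0.87 and -0.88 in hypoxic FVB/N and -0.75 and -1.26 in hypoxic SV129 lung, against -2.23, -1.78 and -2.17 in normoxic BL6, FVB/N and SV129 lung. The 6 hypoxic gaps and the 3 normoxic ones did not overlap, and with the 2 kidney arrays set aside, which leaves no normoxic array in FVB/N, the remaining gaps of BL6 and SV129 did not overlap either. The gap changed by 1.14, with a two-sided exact permutation p within strains of 0.037, the smallest that the 27 arrangements allow, and a Benjamini-Hochberg value of 0.0667 over the 9 same-gene pairs of members. The pair of Pdgfb and the 3 pairs of Pdgfra reached the same p and the same adjusted value, with changes in the gap of 0.39 for Pdgfb and of 0.42 to 1.06 for Pdgfra, and with groups that overlapped. Of 17630 same-gene pairs of probe sets on the array, 16.6% had gaps that did not overlap between the groups, and 3.22% moved in opposite directions by at least as much. Of the 9 member pairs, 8 moved in the same direction, against 58.1% of all pairs. The 9 pairs are not independent, since the 3 pairs of Pdgfra share their probe sets. The pairs of Pdgfa, Pdgfb, Pdgfc and Pdgfd, and those with Pdgfra 1438946_at, each hold a change that turned sign in at least 1 alternative setting. The count of 8 thus cannot show that members move together more often than other pairs. The ending of 1436970_a_at marks a probe set whose probes match several transcripts of 1 gene. Which Pdgfrb transcripts each probe set reads was not examined here.

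**Figure D3:**
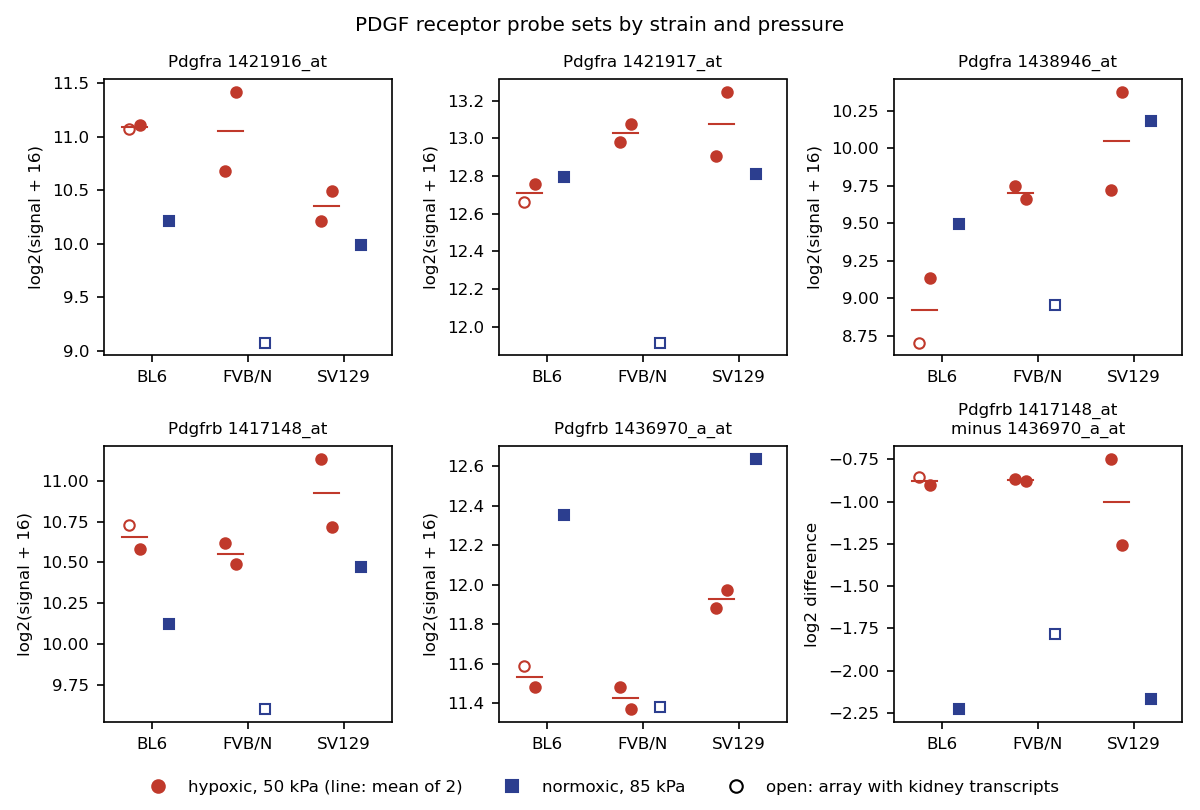
Levels of the 5 PDGF receptor probe sets, as log2(signal + 16) after quantile normalization (vertical axis), by strain, and in the last panel the log2 gap between the 2 Pdgfrb probe sets of each array, with symbols as in the plot of the angiopoietin and Tie probe sets. In the last panel the 6 hypoxic gaps lie between -1.26 and -0.75 and the 3 normoxic gaps between -2.23 and -1.78.

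Within FVB/N, 5 of the 18 member probe sets passed the threshold, 3 higher and 2 lower in hypoxic lung, where 6.8% of all probe sets passed, 2.95% higher and 3.85% lower. Each of these contrasts sets 2 hypoxic arrays against 1 normoxic array, and shares its arrays with the comparison across strains. Tek was 1.17 ± 0.196 higher (adjusted p = 0.0276), at 13.39 and 12.98 in hypoxic lung against 12.02 in normoxic lung. Pdgfra was higher by 1.97 ± 0.320 on 1421916_at (adjusted p = 0.0274), and by 1.12 ± 0.180 on 1421917_at (adjusted p = 0.0272), which read 12.98 and 13.08 in hypoxic lung against 11.91 in normoxic lung. Pdgfc was lower by 2.22 on 1419123_a_at (-2.22 ± 0.413, adjusted p = 0.0314) and by 2.25 on 1449351_s_at (-2.25 ± 0.437, adjusted p = 0.0333). Just short of the threshold stood Tie1 at 1.25 ± 0.315 (adjusted p = 0.0572), Pdgfrb 1417148_at at 0.95 ± 0.248 (adjusted p = 0.0620) and Angpt1 1421441_at at 1.49 ± 0.419 (adjusted p = 0.0750). The normoxic array of this strain is the one with kidney and muscle transcripts, and no value of these contrasts can be had without it.

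The FVB/N calls were lost in several settings. Without the hypoxic FVB/N array 2 or 6, which leaves 1 array at each pressure, none of the 5 passed, a loss not particular to members. The differences stayed between 0.97 and 2.34 for the 3 that were higher and between -2.34 and -2.08 for Pdgfc. Without the intensity trend in the variance, none passed either (0.0587 to 0.0796), and 5 probe sets of all passed in place of 1837. With the mean kidney marker level as a covariate, chosen after seeing the data, Tek was at 1.02, Pdgfra at 1.99 and 1.02 and Pdgfc at -1.36 and -1.04, all with an adjusted p of 0.975. On the same array pair, markers of other cells moved too. Higher in hypoxic FVB/N lung were 6 of 18 endothelial, 3 of 14 pericyte, 2 of 16 fibroblast, 3 of 10 smooth muscle and 2 of 10 lung epithelial genes, with 0 lower in each list, while 3 of 15 kidney genes and 4 of 4 tested skeletal muscle genes were lower (medians of -6.78 and -5.39). The kidney and muscle genes are those by which that normoxic array was marked, so their lower values in this contrast were given in advance. The median of all probe sets in this contrast was 0.17. In this fit the covariate's slope comes from differences between hypoxic arrays of the same strain. These are mainly the BL6 arrays 2 and 5, with kidney marker means of 11.51 and 6.17. The covariate holds no muscle marker, and its slope is carried over to the lone normoxic FVB/N array, so it cannot decide the question. The part of the kidney and muscle RNA on that array in the member differences was thus not tested.

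In BL6 and SV129, 0 of the 18 passed. In BL6 0.0148% of all probe sets passed, and the members ran from -0.82 for Pdgfrb 1436970_a_at (adjusted p = 0.130) to 0.88 for Pdgfra 1421916_at (adjusted p = 0.331), with 3 of 18 under an unadjusted p of 0.05 (12.5% of all probe sets). Without the hypoxic BL6 array 2, which carries kidney transcripts, these 2 extremes were -0.87 and 0.90. In SV129 no probe set of 27022 passed in limma (0%, with 2047, or 7.58%, at an unadjusted p under 0.05), and members ran from -0.71 for Pdgfrb 1436970_a_at (adjusted p = 0.414) to 0.56 for Pdgfb 1450413_at (adjusted p = 0.768). Pdgfrb 1436970_a_at was the only member with an unadjusted p under 0.05 in SV129. Tek changed by 0.19 ± 0.196 in BL6, 1.17 ± 0.196 in FVB/N and 0.12 ± 0.196 in SV129. Whether the response differed between strains was tested with a 2-term interaction, in which no probe set of 27022 passed (0%, with 3328, or 12.3%, at an unadjusted p under 0.05, which 8 of 18 members reached). The smallest interaction p of a member was that of Pdgfc 1449351_s_at (adjusted p = 0.213), and that of Tek was 0.247 after adjustment. Without the hypoxic BL6 array 5, which leaves the BL6 array with kidney transcripts as the only hypoxic one of its strain, that of Pdgfc 1449351_s_at passed (adjusted p = 0.0282), and without both kidney arrays its adjusted p was 0.999949. With all 9 arrays a difference between strains in the response of these genes was not shown, nor does a p above the threshold show that the strains responded alike.

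**Figure D4:**
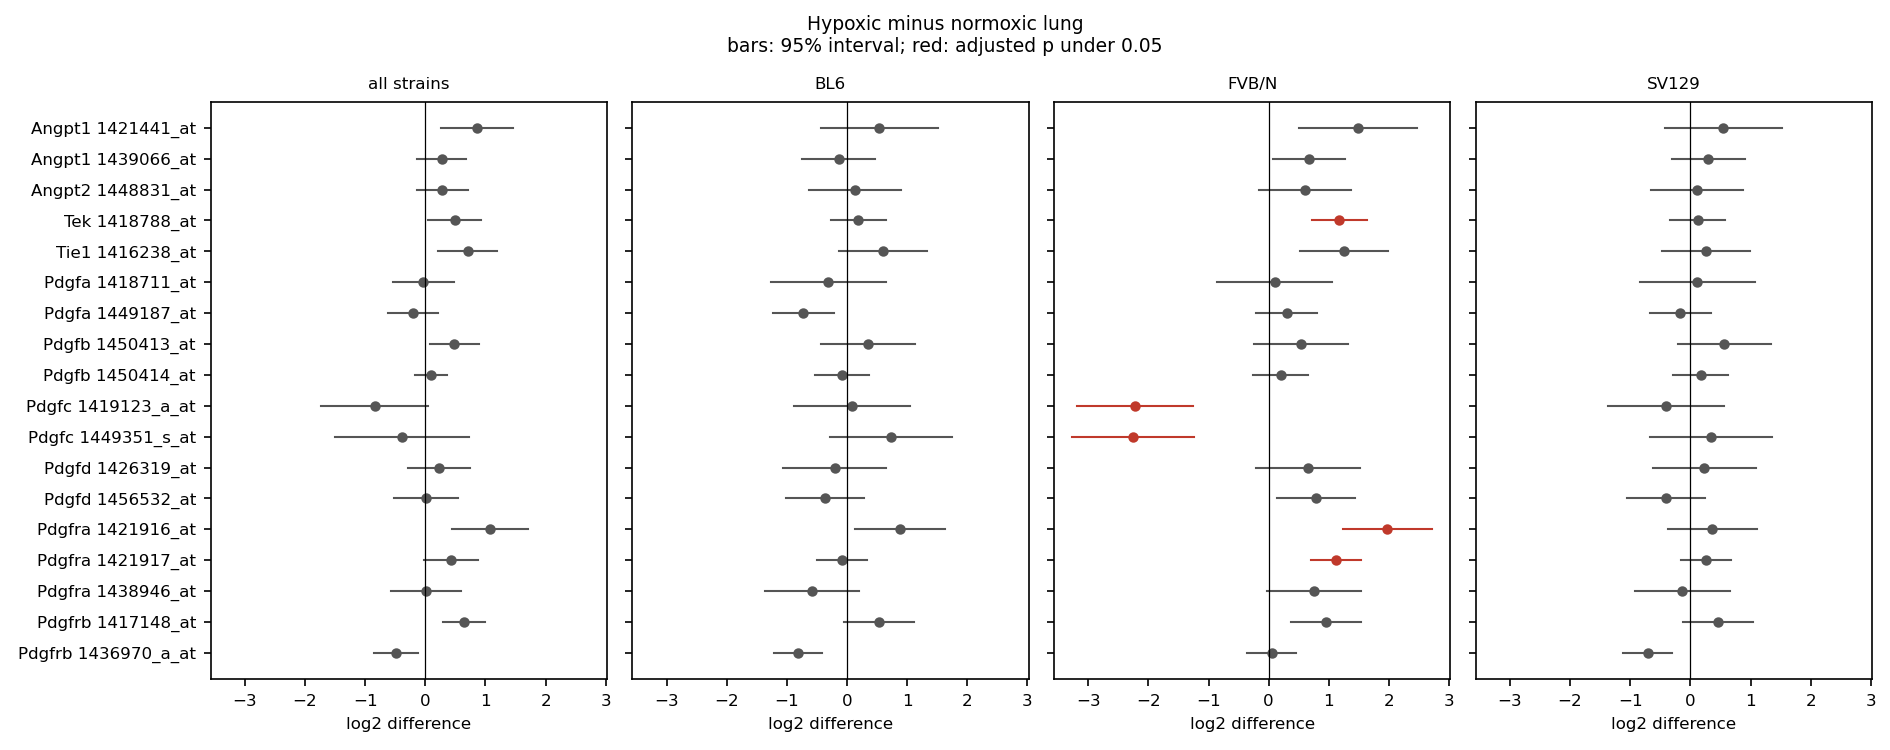
Hypoxic minus normoxic log2 difference (horizontal axis) of the 18 tested member probe sets across strains and within BL6, FVB/N and SV129, with 95% intervals from limma as bars and adjusted p under 0.05 in red. Red points appear in FVB/N only, for Tek at 1.17, Pdgfra at 1.97 and 1.12 and Pdgfc at -2.22 and -2.25, and the panels share arrays.

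Between strains, 1 member probe set differed past the threshold, Pdgfd 1456532_at, and it was lower in SV129 than in either other strain. Pdgfd 1456532_at read 9.65 and 10.05 in hypoxic and 10.22 in normoxic BL6 lung, and 10.13 and 10.36 in hypoxic and 9.46 in normoxic FVB/N lung, against 7.52 and 7.41 in hypoxic and 7.87 in normoxic SV129 lung. All 3 SV129 arrays lay far below the other 6, at either pressure. The mean was 9.98 ± 0.293 in BL6 and 9.98 ± 0.472 in FVB/N, against 7.60 ± 0.240 in SV129 (SD, n = 3 each). The difference adjusted for pressure was 2.38 ± 0.273 for BL6 minus SV129 (5.20-fold, adjusted p = 0.00262) and 2.38 ± 0.273 for FVB/N minus SV129 (5.22-fold, adjusted p = 0.00222). The 2 comparisons share the SV129 arrays. Pdgfd 1456532_at passed in all 21 alternative settings of each, between 2.12 and 2.59 for BL6 minus SV129 and between 2.13 and 2.81 for FVB/N minus SV129. With the kidney arrays left out the differences were 2.49 and 2.75.

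Pdgfd was 1 of 18 members called in each comparison with SV129, where 2.51% of all probe sets passed for BL6 against SV129 and 2.89% for FVB/N against SV129, and 0.529% were lower in SV129 than in both. The other tested probe set, Pdgfd 1426319_at, read 7.99, 8.48 and 8.44 in BL6 and 8.02, 8.64 and 7.67 in FVB/N, against 7.60, 7.51 and 7.32 in SV129 lung, with the normoxic array last in each strain. Its SV129 arrays again lay below the other 6, as for 3.3% of all probe sets, but the differences of 0.83 ± 0.261 (adjusted p = 0.160) and 0.63 ± 0.261 (adjusted p = 0.273) did not pass. Platelet genes were also lower in SV129. Of 7 tested, 3 passed for BL6 against SV129 and 6 for FVB/N against SV129, led by the chemokine gene Ppbp at 3.75 and 4.47. The others were Gp9 and Gp1bb in both comparisons and Pf4, Itga2b and Gp5 for FVB/N against SV129. The mean of 8 platelet genes lay between 8.43 and 9.15 on the BL6 and FVB/N arrays, against 6.48 to 7.35 on the SV129 arrays. Its part in the Pdgfd difference was not tested, nor were the probe sequences compared with those of the strains. The difference that passed is that of 1 probe set, and fewer Pdgfd transcripts in SV129 lung were not shown.

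No other member passed in a comparison of strains. Between BL6 and FVB/N 0 of 18 passed, where 2.07% of all probe sets did and no member reached an unadjusted p under 0.05, and the differences ran from -0.44 to 0.42. Pdgfb 1450414_at read 11.64 and 11.60 in hypoxic and 11.42 in normoxic FVB/N lung, against 12.25 and 11.91 in hypoxic and 11.91 in normoxic SV129 lung. FVB/N lay below the other 6 arrays, as for 3.62% of all probe sets, and SV129 above them, as for 4.13%, with BL6 between. The difference of FVB/N minus SV129 was -0.47 ± 0.138 (adjusted p = 0.131). Pdgfrb 1436970_a_at was lower in FVB/N than in SV129 by 0.75 on the log2 scale (-0.75 ± 0.188, adjusted p = 0.0756), without passing, and by 0.47 without the kidney arrays (-0.47, adjusted p = 0.161). Pdgfra 1438946_at was lower in BL6 than in SV129 (-0.98 ± 0.295, adjusted p = 0.142, or 0.0369 without the normoxic FVB/N array), while the other Pdgfra probe sets differed by 0.57 and -0.25 in that comparison. In level order, the neighbouring strain means of every member other than Pdgfd 1456532_at thus did not differ past the threshold.

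**Figure D5:**
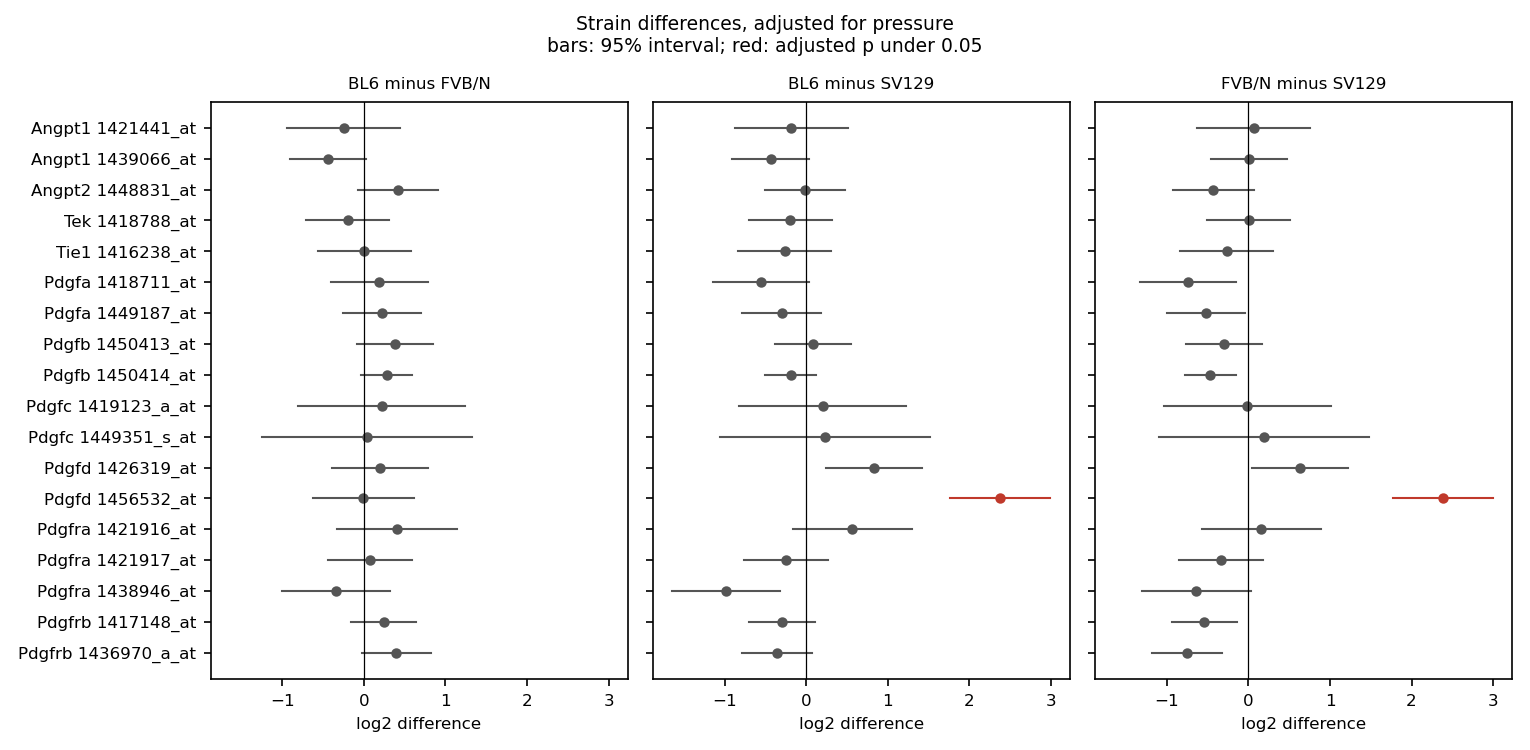
Log2 differences between strains adjusted for pressure (horizontal axis) of the 18 tested member probe sets, as BL6 minus FVB/N, BL6 minus SV129 and FVB/N minus SV129, with 95% intervals from limma as bars and adjusted p under 0.05 in red. The red points are Pdgfd 1456532_at, at 2.38 for BL6 minus SV129 and at 2.38 for FVB/N minus SV129.

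Partners of Tie2 signalling, 17 genes read by their brightest probe set, included 1 that rose across strains and 0 that fell, where 3.76% of all probe sets passed. It was Svep1, whose protein binds Tie1 and is an extracellular matrix component, at 10.55 in hypoxic and 9.81 in normoxic lung (0.74 ± 0.167, adjusted p = 0.0466, but 0.49 and 0.248 without the kidney arrays). The list's median change was 0.20, against 0.036 for all probe sets, with 13 of 17 above 0. The largest change was that of Nck1, an adaptor of receptor tyrosine kinases, at 0.86 ± 0.224 (adjusted p = 0.0693), which was 0.53 without the kidney arrays. In FVB/N, against the normoxic array with kidney and muscle transcripts, 2 of 17 were higher (2.95% of all probe sets), Nck1 by 1.58 ± 0.263 (adjusted p = 0.0276) and Svep1 by 1.14 ± 0.256 (adjusted p = 0.0451), and 0 of 17 passed in BL6, in SV129 or between strains. Rasa1, a RAS GTPase activating protein, had the largest differences in BL6 (-1.10 ± 0.222, adjusted p = 0.116) and in SV129 (-0.72 ± 0.222, adjusted p = 0.523). Pik3ca, the catalytic subunit of phosphoinositide 3-kinase, had the largest between strains, -0.64 ± 0.147 for BL6 minus SV129 (adjusted p = 0.0608).

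Of the partners of PDGF signalling, 15 of 16 genes were tested, and 0 of 15 passed in any comparison. Their median change across strains was 0.10, with 8 of 15 above 0. Ptprj, a receptor phosphatase that acts on PDGF receptors, had the largest difference across strains (-0.60 ± 0.249, adjusted p = 0.201), and Furin, a protease that processes PDGF precursors, followed with -0.49 ± 0.254 (adjusted p = 0.293). The co-receptor gene Nrp1 was at -0.50 ± 0.154 for BL6 minus SV129 (adjusted p = 0.149) and at -0.62 ± 0.154 for FVB/N minus SV129 (adjusted p = 0.0741). The kinase gene Src was at -0.90 ± 0.253 for BL6 minus SV129 (adjusted p = 0.119). In FVB/N, Plcg1, which encodes a phospholipase recruited by PDGF receptors, came closest under hypoxia at 0.95 ± 0.231 (adjusted p = 0.0523), again against that normoxic array.

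The cells that carry these receptors were described by marker genes, to be read against the 3.76% of all probe sets that passed for hypoxia across strains. Of 14 pericyte genes, 0 passed, with 11 above 0 and a median of 0.37, and the largest differences were those of Higd1b, at 0.70 ± 0.171 (adjusted p = 0.0581), and Ndufa4l2, at 0.67 ± 0.208 (adjusted p = 0.107). Of 16 fibroblast genes, 2 rose with hypoxia, the collagen gene Col1a1 by 0.93 ± 0.164 (adjusted p = 0.0236) and Mfap4, of elastic microfibrils, by 0.86 ± 0.136 (adjusted p = 0.0185), with 12 above 0. Of 18 endothelial genes, 2 rose, Emcn by 1.43 ± 0.114 (adjusted p = 0.00621) and Icam2 by 0.66 ± 0.136 (adjusted p = 0.0362), while Calcrl, a receptor for adrenomedullin, was at -0.86 ± 0.231 (adjusted p = 0.0748). The endothelial list was split, with 10 of 18 above 0 and a median of 0.051. Of 10 smooth muscle genes, Tpm1 rose by 0.58 ± 0.131 (adjusted p = 0.0467), with 9 above 0 and a median of 0.36. Lmod1 and Tagln were at 0.72 and 0.60 without passing, and at 0.078 and 0.47 without the kidney arrays. Without the kidney arrays, Emcn at 1.35 (adjusted p = 0.0370) passed still, and Tpm1 at 0.72 only just (adjusted p = 0.049997). Calcrl then passed at -1.23 (adjusted p = 0.0442), and Col1a1 at 0.99, Mfap4 at 0.92 and Icam2 at 0.48 did not (adjusted p = 0.0768, 0.0642 and 0.145).

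Within FVB/N, the marker genes that passed upward against the normoxic array with kidney and muscle transcripts were Higd1b (1.23), Mcam (1.31) and Postn (1.01) of the pericyte list, Tcf21 (0.87) and Itga8 (0.72) of the fibroblast list, Tagln (1.06), Lmod1 (2.31) and Mylk (0.74) of the smooth muscle list, and Sftpd (0.75) and Hopx (0.55) of the lung epithelial list. The endothelial genes were Emcn (1.51), Cd34 (1.07), Icam2 (1.03), Cldn5 (1.02), Eng (1.02) and Esam (0.76). Lmod1 was dim on that normoxic array, at 5.00, against a mean of 7.31 in hypoxic FVB/N lung. From the lists that marked that array, Slc22a6 (-8.07), Slc5a2 (-3.75) and Lrp2 (-3.54) of kidney passed downward. So did Acta1 (-6.39), Tnnt3 (-6.38), Mylpf (-4.40) and Ckm (-3.86) of muscle. Between strains, the pericyte list showed no common direction, with 9 of 14 genes above 0 for BL6 minus FVB/N (median 0.12) and 7 of 14 for BL6 minus SV129 (median 0.028). For FVB/N minus SV129, 5 of 14 were above 0 (median -0.18). The list's only gene to pass was Rgs5, a regulator of G protein signalling. Rgs5 was at -1.33 ± 0.190 for BL6 minus FVB/N (adjusted p = 0.00712) and -1.57 ± 0.190 for BL6 minus SV129 (adjusted p = 0.00338). Kcnj8 was at 0.76 for BL6 minus FVB/N (adjusted p = 0.143). Of 16 fibroblast genes, 3 were lower in FVB/N than in SV129, where 2.89% of all probe sets passed. They were Col1a1 (-1.30), Meox2 (-1.18) and Col1a2 (-0.70), and without the kidney arrays Meox2 and Col1a2 no longer passed. Of the 16, 2 were above 0 for FVB/N minus SV129 (median -0.36), 1 for BL6 minus SV129 (median -0.33) and 9 for BL6 minus FVB/N (median 0.026). The mean of the 18 endothelial genes ran from 11.76 to 12.22 on the hypoxic arrays, against 11.51 to 12.15 on the normoxic ones, lowest on the normoxic FVB/N array. That of the 14 pericyte genes ran from 9.61 to 9.94, against 9.16 to 9.60, again lowest on that array. The part of these marker levels in the member differences was not tested.

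The genes whose level ran most like a member's over the 9 arrays were found among 12894 genes, as the 2 with the highest Pearson correlation, which is a description without a test. For Tek they were Tyk2 (r = 0.989) and Dock6 (0.981), and over the 7 arrays without kidney transcripts these were 0.981 and 0.959. For Tie1 they were Arhgef15 (0.987) and Capns1 (0.984). Angpt1 1439066_at ran with Tmed5 (0.973) and Arhgap12 (0.959), and Angpt2 with Ssbp2 (0.922) and Chd2 (0.915). Pdgfb 1450414_at ran with Tmc4 (0.965) and Klf5 (0.955), Pdgfra 1421917_at with 1110038F14Rik (0.984) and Bace1 (0.983), and Pdgfrb 1436970_a_at with Rasef (0.973) and Pls3 (0.964). Over the 7 arrays these 14 correlations lay between 0.830 and 0.981. The points share their arrays, their normalization and, over 9 arrays, the 2 with kidney transcripts.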

How the data were processed

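The tissue was the right lung, frozen at sacrifice, with RNA purified on Qiagen columns and biotin-labelled for the arrays, per the labels' protocols. Each deposited value is an intensity on a linear scale, which the authors had scaled on each array to a trimmed mean of 500, as seen from the values. The software behind them was not named in the labels. Another 12 arrays named in the series' text were not analysed here. After 64 of 45101 probe sets were dropped as controls, deposited intensities were converted to log2(signal + 16) and quantile normalized, and the dimmest 40% by mean were removed. In the annotation table, 34945 probe sets carried 1 gene symbol, 932 more than 1, and 9160 no entry.

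The limma package (3.58.1, R 4.3.3; lmFit and eBayes with an intensity trend) was used with the Benjamini-Hochberg adjustment over 27022 probe sets and a threshold of 0.05. An additive fit of strain plus pressure over all 9 arrays gave the strain differences and hypoxia across strains (5 residual degrees of freedom). A fit of 6 groups gave the interaction and hypoxia within a strain (3 residual degrees of freedom), where the lone normoxic array is assumed to vary like the hypoxic ones. The gap between probe sets of 1 gene was tested by exact permutation within strains. Scripts were tested on simulated data. All member probe sets are named. A list gene (brightest probe set on average) could be named if it passed or had 1 of the 2 largest changes of its list, and not all of those with a large change short of the threshold are printed. The members, lists and rules were chosen with earlier results of these data known. The number of arrays limits the precision.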

Additional observations from a re-analysis of the deposited data

Results flagged for a closer look

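Of 18 tested member probe sets, 2 had a hypoxic array apart from the other 5 hypoxic arrays by Dixon's test (critical ratio of gap to range 0.625), which chance gives in about 1 in 20 groups. Both times it was the hypoxic SV129 array 2. For Pdgfa 1418711_at that array read 10.98 on the log2 scale, against 9.58 to 9.90 on the other 5, a gap of 0.775 of the whole range. For Pdgfrb 1417148_at it read 11.14, against 10.49 to 10.73, a gap of 0.625 of the range. The other tested probe set of each gene was not flagged. On Pdgfa 1449187_at and Pdgfrb 1436970_a_at that array read 10.75 and 11.88, below the hypoxic SV129 array 5 at 10.90 and 11.97. The cause was not tested, and the 6 arrays come from 3 strains.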

How the results depend on the processing

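The difference of Pdgfd 1456532_at between SV129 and each other strain passed in every one of the 21 settings tried, that of Pdgfd 1426319_at in 0 of 21, and no member passed in more than 6 of 22 settings for hypoxia across strains. Counts of all probe sets past the threshold varied far more. For hypoxia across strains, 1016 in the setting reported, the count was 582 without the filter, 657 without the intensity trend, 1871 with array weights, 228 without both kidney arrays, 1606 as the mean of the within-strain effects and 1963 with the kidney covariate, chosen after seeing the data. For BL6 against FVB/N (560) it was 369 with the dimmest 60% left out, 2199 with array weights and 323 without the kidney arrays. For BL6 against SV129 (678) it was 1291 with array weights and 436 on the 6 hypoxic arrays alone, where FVB/N against SV129 (780) gave 451. For hypoxia in BL6 (4, of which 0 were higher, or 1 with median centring) it was 17 with the dimmest 60% left out, 22 with robust variances, 254 with array weights, and 0 without the trend, without the kidney arrays or with the kidney covariate. For hypoxia in FVB/N (1837) it was 1087 without the filter, 5 without the trend, 3189 with array weights and 0 with the kidney covariate. The interaction (0) gave 7 with a pseudocount of 64.

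Leaving out each array in turn gave 3 to 1390 probe sets for hypoxia across strains, 251 to 748 for BL6 against FVB/N, 201 to 1227 for BL6 against SV129, 321 to 771 for FVB/N against SV129, 0 to 207 for hypoxia in BL6, 0 to 3843 in FVB/N, 0 in SV129 and 0 to 607 for the interaction. The array numbers that strains share were treated as names, not as pairs. Deviations of same-numbered hypoxic arrays from their group means correlated at -0.188 to -0.026. With 2 arrays per group these deviations mirror each other, and 1 of the arrays carries kidney transcripts, so the correlations cannot decide whether the numbers mark pairs. With the number as a replicate block, 1 probe set passed for hypoxia, 187 for BL6 against FVB/N, 299 for BL6 against SV129 and 181 for FVB/N against SV129, Pdgfd 1456532_at among those of the last 2. Number 1 marks all normoxic arrays and no hypoxic one, so for hypoxia the block takes the place of pressure in the fit and its count says nothing about pairing.

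Small hypoxia changes across strains turned sign. Pdgfa 1418711_at (-0.034) was 0.075 with median centring and ran from -0.19 to 0.11 with single arrays left out. Pdgfa 1449187_at (-0.20) ran from -0.45 to 0.068 with single arrays left out. Pdgfb 1450414_at (0.095) was -0.037 with array weights. Pdgfc 1449351_s_at (-0.39) was 0.034 with array weights and 0.29 without the kidney arrays, and ran from -0.96 to 0.54 with single arrays left out, turning up without the normoxic FVB/N array. Pdgfd 1456532_at (0.0058) was -0.00252 with a pseudocount of 1, -0.092 with array weights, -0.30 without the kidney arrays and -0.15 with the kidney covariate, and ran from -0.39 to 0.21 with single arrays left out. Pdgfra 1438946_at (0.014) was -0.27 with array weights, -0.23 without the kidney arrays and -0.15 with the kidney covariate, and ran from -0.35 to 0.31 with single arrays left out. The cause was not tested. With 1 normoxic array per strain, precision is limited by the number of arrays.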
